A study of Mus musculus with 8 samples.

Results

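The wild-type state of the newborn mouse calvaria, which form the vault of the skull, was described here from bulk RNA sequencing as a baseline of transcript abundance. The members were the 4 libraries labelled wild type, out of 8 samples in the series, and the genes were the 49315 Ensembl gene IDs of the deposited count table, of which 29121 had at least 1 count in these libraries. The other 4 samples came from knockouts of Kcnj9, the gene of the potassium channel subunit Girk3, and none of their values were used. The study asks what loss of Girk3 does to bone mass. No comparison between genotypes was made here, and so no test of a difference.

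The wild-type mice were female, of the strain written C57BL6, and 2 to 3 days old. Calvaria were rinsed in PBS and snap frozen, then homogenised in Trizol. Total RNA was purified on Zymo Direct-zol columns and made into libraries with NEBNext Ultra II RNA chemistry. The labels name 4 wild-type mice for the 4 libraries. Litters, and the way messenger RNA was separated from ribosomal RNA, were not stated in the labels. The libraries are written WT1 to WT4 after their replicate numbers, and values given 4 at a time are always in that order. A spread is the SD over these 4 libraries, which holds the differences between mice, dissections and library preparations together.

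As background, the skull roof forms by intramembranous ossification, in which mesenchymal cells become osteoblasts directly, without a cartilage model. Osteoblasts secrete type I collagen and a set of acidic, mineral-binding proteins, and pass this load through the endoplasmic reticulum and Golgi. Osteoclasts, large cells of the myeloid lineage, resorb the young bone while it grows, and the tissue carries blood vessels, marrow elements, nerve fibres and the edges of attached muscle.

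The libraries held 45346938, 42677925, 44892414 and 49600047 counts. Levels in a gene are given in CPM, the count of a gene scaled by the total of its library, which serve to compare libraries. For levels compared between genes, counts were divided by the exon bases of the gene and rescaled to the same sum in every library (TPM). At this depth 1 count equals 0.0202 to 0.0234 CPM, and 3 counts, taken as the floor, equal 0.0605 to 0.0703 CPM. Between 24545 and 25085 genes had a count in each library, 13516 genes reached 1 CPM in all 4, and 20194 gene IDs had no count in any. WT3 stood apart from the other libraries in skeletal muscle transcripts and WT1 in brain, neuron and fat transcripts, and these genes are given below library by library. In bulk RNA, fewer cells of a type and less RNA per cell cannot be told apart.

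A very small number of genes made up a large part of these libraries. The most abundant gene alone held 8.21%, 8.53%, 7.60% and 9.16% of all counts, and the first 2 together held 15.7% ± 0.757 (SD, n = 4). The first 10 genes held 23.1% ± 0.646, and 466 genes ranked by mean CPM held 50% of the counts. A long tail followed, with between 5657 and 5709 genes needed for 90% of the counts of a library. The leading genes were nearly the same in each mouse: 9 genes were in the top 10 of every library, and 86 of the 110 genes found in the top 100 of any library were in the top 100 of all 4.

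Both chains of type I collagen stood at the head of the CPM ranking. Col1a1 (ENSMUSG00000001506, chromosome 11 from 94936224 to 94953042, plus strand, GRCm38/mm10), which encodes the α1 chain, had 82133, 85328, 76034 and 91638 CPM. Col1a2, which encodes the α2 chain, had 74035, 74778, 71118 and 73394 CPM. The Col1a2 levels lay within a coefficient of variation (CV, SD over mean) of 2.15%, whereas those of Col1a1 had a CV of 7.76%, with WT4 highest and WT3 lowest. Per exon base Col1a1 ranked 1 with 45932 ± 4576 TPM and Col1a2 ranked 4 with 21209 ± 672 TPM (SD, n = 4).

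The TPM distance between these chains depends on the gene length that is used. Type I collagen contains more α1 than α2 chains. With the union of all annotated exons as length, Col1a1 was 2.16 ± 0.146 times Col1a2 on the TPM scale. With the longest annotated transcript as length the ratio was 1.03 ± 0.0693, and Col1a2 then ranked 2. The exon union spans 12426 bases in Col1a2 and 6563 in Col1a1. In either case the ratio was highest in WT4 and lowest in WT3.

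Spp1 and Sparc followed among the genes of the mineralised matrix. Spp1 encodes osteopontin, an acidic phosphoprotein made by osteoblasts, osteocytes and osteoclasts, and had 11653, 11819, 15524 and 11981 CPM. WT3 was the high library, and the other 3 lay close together. Sparc encodes osteonectin, a collagen- and calcium-binding glycoprotein, and had 25463, 24166, 22841 and 23091 CPM. On the TPM scale Spp1 ranked 2 at 27798 ± 4143 and Sparc ranked 3 at 22650 ± 770 with exon-union lengths, and with the longest transcript Sparc ranked 3 and Spp1 ranked 4.

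Other secreted bone proteins filled the next places beside housekeeping and mitochondrial transcripts. Ibsp, which encodes bone sialoprotein, ranked 17 at 5054 ± 485 TPM and had 3381, 2909, 2626 and 2734 CPM, highest in WT1. Bglap, one of the osteocalcin genes, ranked 15 at 6106 ± 663 TPM and had 1090, 1100, 1162 and 857 CPM, lowest in WT4. Osteocalcin lies in a cluster of near-identical genes, so the split of reads between Bglap and Bglap2 (3033 ± 303 TPM) is uncertain. The ratio of Bglap to Bglap2 was nevertheless even across the libraries, at 2.01 ± 0.0344 on the TPM scale. The third copy, Bglap3, had 0.802 to 1.92 CPM.

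Outside the matrix, the 25 genes of highest TPM that have a gene name included mitochondrial messengers, ribosomal protein genes and Eef1a1, the translation elongation factor, at 8852 ± 317 TPM. The osteoclast protease gene Ctsk ranked 10 at 7566 ± 1263 TPM. The imprinted noncoding RNA H19 ranked 14 at 6433 ± 136 TPM. Lgals1 (galectin 1), at 3508 ± 372 TPM, and Serpinf1 (pigment epithelium-derived factor), at 3278 ± 68.9 TPM, were also among them. 2 gene models known only by number, which ranked 9 and 12, were passed over.

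**Figure D1:**
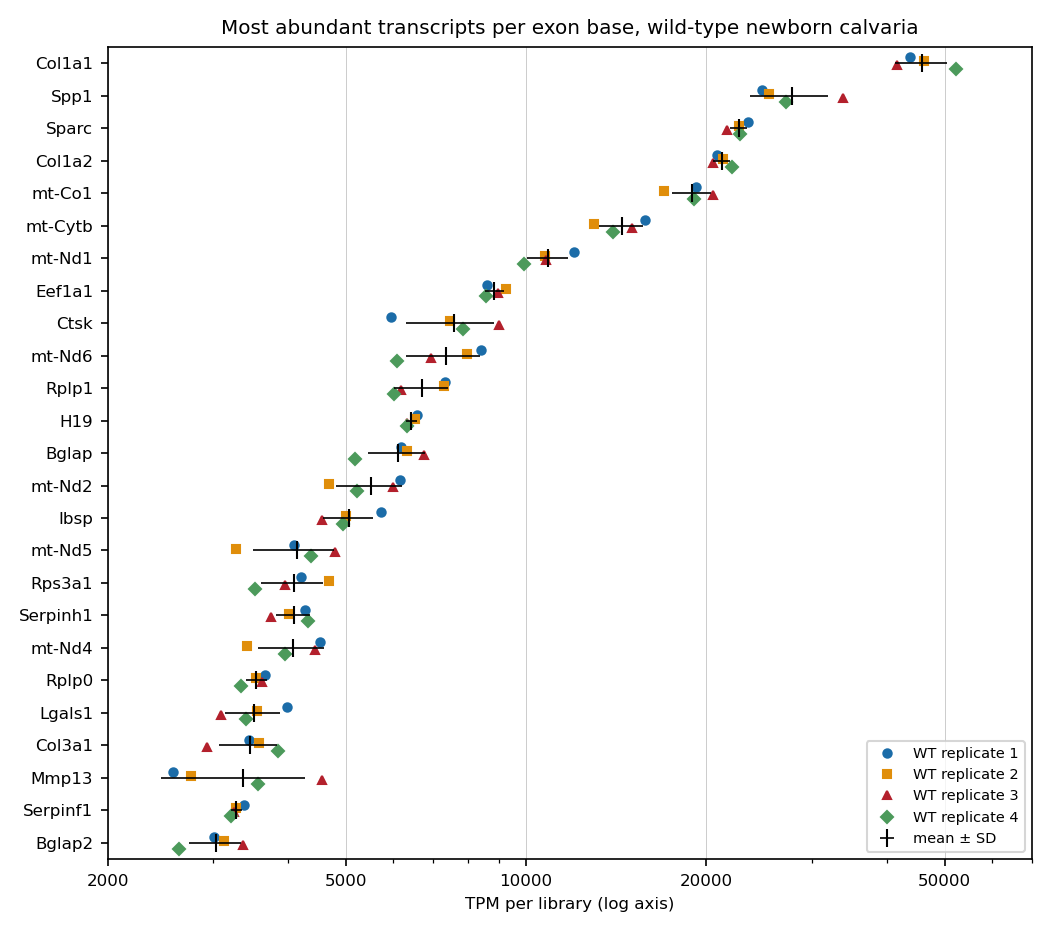
TPM (log axis) of the 25 named genes of highest mean TPM, with 1 point for each wild-type library and a black mark for the mean ± SD (n = 4). Col1a1 lies at 45932 TPM on average, Spp1, Sparc and Col1a2 lie between 21209 and 27798, and Mmp13, Spp1 and Ctsk show WT3 at the right of the other libraries.

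The sequence just before the start of a few of these genes is shown because abundant matrix genes and the muscle genes that were low in 1 library can then be read side by side. The 100 bases upstream of the annotated start were taken from RefSeq (GRCm38.p6), 5′ to 3′ in the direction of the gene, with capitals marking on either strand a TATA box, the core of an E box, a CCAAT box or a CArG box. The loci are chr5:104299187-104299286 (plus strand) for Ibsp, chr3:88384467-88384566 (minus strand) for Bglap, chr11:55420081-55420180 (minus strand) for Sparc, chr8:123894776-123894875 (minus strand) for Acta1, chr7:127211508-127211607 (plus strand) for Mylpf and chr7:103827929-103828028 (minus strand) for Hbb-bs.
Ibsp: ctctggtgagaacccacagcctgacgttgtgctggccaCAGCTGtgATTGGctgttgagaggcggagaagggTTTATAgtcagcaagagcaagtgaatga
Bglap: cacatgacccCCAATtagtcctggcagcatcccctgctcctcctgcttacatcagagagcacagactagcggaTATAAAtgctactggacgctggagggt
Sparc: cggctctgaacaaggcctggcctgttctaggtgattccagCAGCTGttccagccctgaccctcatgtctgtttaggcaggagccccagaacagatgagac
Acta1: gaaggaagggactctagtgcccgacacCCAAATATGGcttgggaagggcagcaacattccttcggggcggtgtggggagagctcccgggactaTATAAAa
Mylpf: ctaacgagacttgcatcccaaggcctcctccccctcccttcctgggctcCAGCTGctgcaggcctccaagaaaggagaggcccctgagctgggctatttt
Hbb-bs: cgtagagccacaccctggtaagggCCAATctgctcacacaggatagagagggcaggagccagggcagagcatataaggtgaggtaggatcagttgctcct
In these windows TATAAA, the only TATA box form searched for, was found in Ibsp, Bglap and Acta1. CAGCTG, the only E box form searched for, was found in Ibsp, Sparc and Mylpf, and the CCAAT box in Ibsp, Bglap and Hbb-bs. Other forms of the TATA box and E box were left unmarked, so a window without capitals may still hold them. The CArG box was found in Acta1. Windows of Col1a2, Spp1, Myl1, Ckm and Myh8 were also taken and are not printed. Those of Col1a2 and Ckm and the Spp1 window at chr5:104436092-104436191 held none of these motifs. Myl1 and Myh8 held TATAAA and the CCAAT box, and the Spp1 window at chr5:104435011-104435110 held the CCAAT box. The printed windows are therefore examples and do not show how common a motif is among these genes.

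Over 300 bases (250 before to 50 after the start, both strands, with a promoter free to hold several motifs), the TATA box (TATAAA) was present in 13.6% of all 32851 RefSeq promoters and in 7.10% of the 13220 promoters of genes at 1 CPM or more in every library. It was present in 25% of 20 promoters of the mineralised matrix list (15 of 18 genes matched) and in 22.2% of 54 promoters of the skeletal muscle list (45 of 60 genes matched). In the collagen chain list it was present in 14.3% of 14 promoters, and in the endoplasmic reticulum list in 3.57% of 28. The E box core (CAGCTG) was in 16.3% of all promoters and in 48.1% of those of the muscle list. The CArG box was in 1.63% of all promoters and 13.0% of the muscle list. The CCAAT box was in 37.4% of all promoters and in 75% of the 28 promoters of the endoplasmic reticulum list. A match is a description of letters in a window and not of a factor that binds there, and the Col1a1 entry was not found in the table.

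Gene lists were used to sum the counts of each tissue element, with every gene in a single list. The 84 genes of the matrix lists held 25.3%, 25.4%, 24.3% and 26.2% of all counts (25.3% ± 0.813, SD, n = 4). The 97 genes of the secretory lists held 2.96% ± 0.0795, the 62 vessel genes 0.641% ± 0.0565, the 122 blood genes 0.222% ± 0.0241, the 76 muscle genes 0.207% ± 0.131 and the 51 nerve genes 0.0169% ± 0.00534. Per exon base the matrix lists held 16.8% ± 0.583 of TPM, the secretory lists 3.04% ± 0.0920, the blood lists 0.556% ± 0.0832, the vessel lists 0.458% ± 0.0421, the muscle lists 0.305% ± 0.2004 and the nerve lists 0.0211% ± 0.00589. Blood and vessel genes changed places between these scales. The order of matrix, secretory genes and nerve was the same on both. By counts, blood and muscle did not differ beyond the spread of muscle. Where members of a list are counted below by the library in which they were highest or lowest, the background is the 14176 genes with a mean of at least 1 CPM. Of these, 24.7%, 22.4%, 30.4% and 22.5% were highest in WT1 to WT4, and 25.8%, 25.2%, 19.4% and 29.6% were lowest there.

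**Figure D2:**
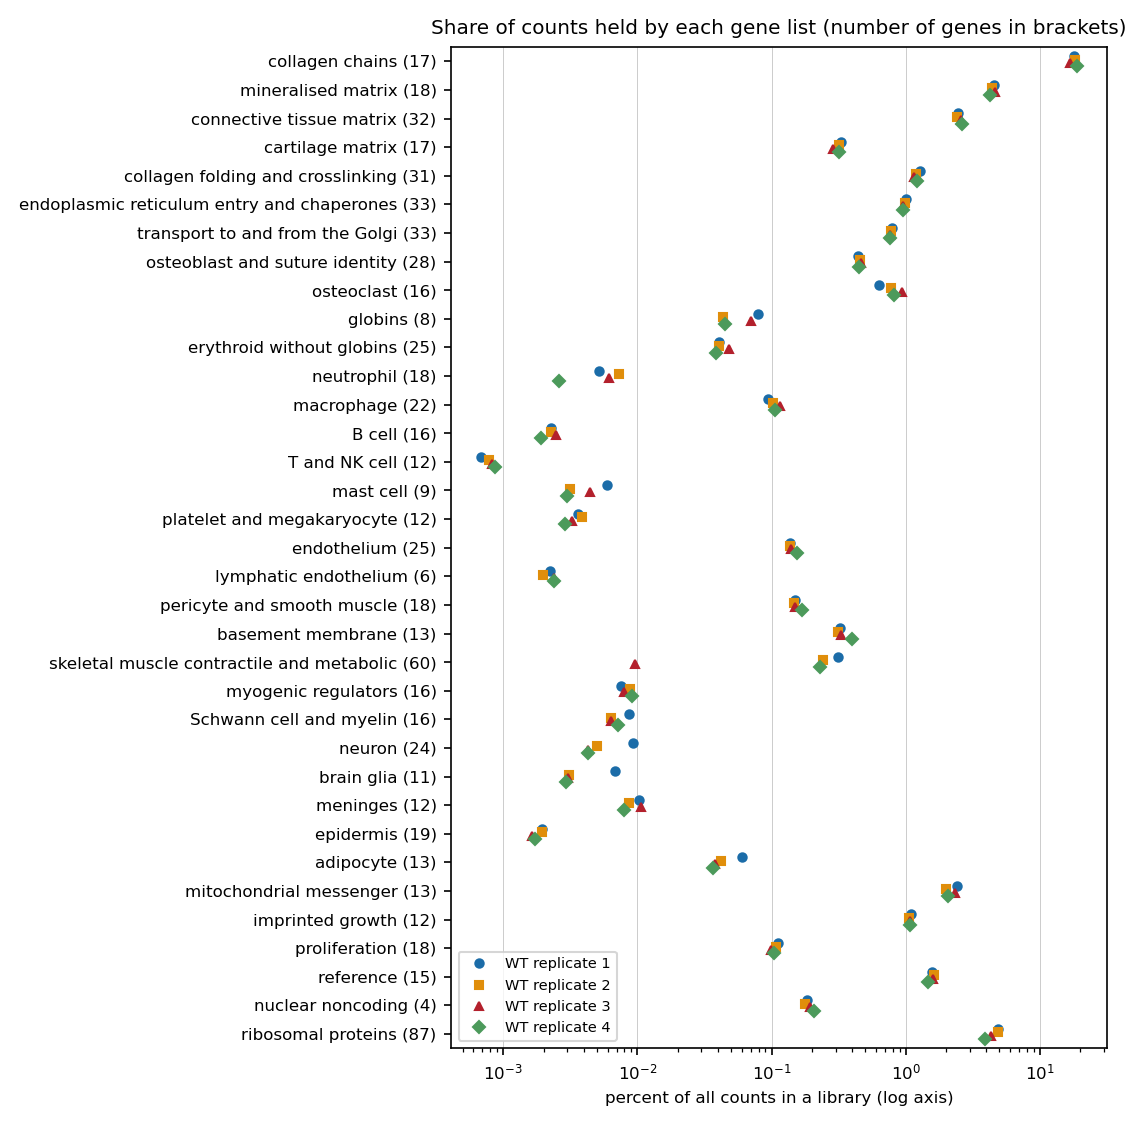
Percent of all counts (log axis) held by each gene list in each wild-type library, with the number of genes of the list in brackets. Most lists show 4 points close together, while the skeletal muscle list has WT3 at 0.00962% against 0.229% to 0.312%, and the neuron and brain glia lists have WT1 at the right.

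Within the matrix, the 17 collagen chains outside cartilage and basement membrane held 17.9%, 18.3%, 16.7% and 18.996% of counts. Of the 17 chains, 12 were highest in WT4 and 12 were lowest in WT3. Col3a1, the chain of type III collagen that accompanies type I in loose connective tissue, had 3450 ± 385 TPM. Col5a2 and Col5a1, chains of the type V collagen that sits inside type I fibrils, had 1326 ± 60.5 TPM and 761 TPM. The type VI chains Col6a1, Col6a2 and Col6a3 lay between 365 and 1017 TPM, and Col12a1, a fibril-associated chain, at 605 TPM. Col24a1 (67.1 TPM) and Col27a1 (31.0 TPM), minor fibrillar chains, closed the range with Col5a3 (32.4 TPM).

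The 18 genes of the mineralised matrix list held 4.48% ± 0.164 of counts and 6.94% ± 0.382 of TPM (SD, n = 4). Alpl, the phosphatase that frees phosphate for mineral, had 886, 842, 789 and 894 CPM. Dmp1, an acidic matrix protein of early osteocytes, had 734, 811, 941 and 919 CPM, higher in WT3 and WT4. Genes that set the local balance of phosphate and pyrophosphate included Ank (388, 437, 602 and 489 CPM), the pyrophosphate transporter, and Enpp1 (246, 275, 348 and 333 CPM), which makes pyrophosphate. WT3 was the highest library for both. Ifitm5, an osteoblast membrane protein, was at 656 TPM, and Mgp, matrix Gla protein, at 831 TPM. The osteocyte genes Mepe and Sost were low beside Dmp1, which had 1109 ± 151 TPM. Mepe had 67.8 TPM, and Sost, which encodes sclerostin, had 33.8 ± 9.41 TPM and 19.7, 27.4, 14.8 and 16.05 CPM.

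Connective tissue matrix genes held 2.52% ± 0.104 of counts. Mmp13, the collagenase of bone remodelling, led this list per base of the exon union (3365 ± 910 TPM); with the longest transcript as length Bgn led. Its levels were 1966, 2075, 3400 and 2549 CPM, a CV of 26.1%, with WT3 highest and WT1 lowest. The small leucine-rich proteoglycans Lum (2347 TPM), Bgn (1775 ± 111 TPM) and Aspn (1590 TPM) came next, and Postn, the periostin of periosteum and suture, was at 1676 ± 181 TPM. Bgn had 3099, 2797, 3053 and 3093 CPM, with WT2 slightly below a tight group of 3. Mfap5, a microfibril protein, had 30.0, 9.07, 20.1 and 8.85 CPM, so that WT1 and WT3 lay above WT2 and WT4.

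Cartilage matrix genes held 0.313% ± 0.0171 of counts, and most of that came from the type XI chains that also occur outside cartilage. Col11a2 had 739 ± 41.8 TPM and Col11a1 378 ± 28.9 TPM. The chain that defines cartilage, Col2a1, was at 7.99 TPM with 32.7, 19.8, 12.8 and 17.4 CPM, and Acan (aggrecan) was at 48.5 ± 9.92 TPM. Col10a1, the collagen of hypertrophic cartilage, had 1.00 to 2.91 CPM, and Matn1 0.290 to 0.984 CPM. WT3 was the lowest library for 10 of the 15 cartilage genes with a mean of at least 1 CPM.

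The secretory share varied little between libraries, at 3.07%, 2.96%, 2.88% and 2.94%. Genes of collagen folding and crosslinking held 1.21% ± 0.0483 of counts, those of endoplasmic reticulum entry and chaperones 0.980% ± 0.0297 and those of transport to and from the Golgi 0.771% ± 0.0110, and all 97 genes reached 1 CPM in every library. The median CV of their members was 6.47%, 5.93% and 4.78%. It was 8.78% for all 14176 genes with a mean of at least 1 CPM. For the 9762 genes with a mean of at least 10 CPM it was 7.25%. These backgrounds were not matched to the lists for abundance, and counting noise is a larger part of the CV in genes of low abundance. Serpinh1, the collagen chaperone HSP47, was the leading member at 4088 ± 264 TPM, with 2978, 2764, 2549 and 2826 CPM. P4hb, shared by prolyl hydroxylase and protein disulphide isomerase, had 1546 ± 78.8 TPM, Pcolce, which enhances procollagen cleavage, 1175 ± 51.9 TPM, and Lox, the crosslinking oxidase, 950 ± 15.0 TPM.

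The prolyl 3-hydroxylation complex was seen through Crtap (682 TPM), P3h1 (294 TPM) and Ppib (311 TPM), and Fkbp10, a collagen-specific foldase, had 746 TPM. Plod2, the lysyl hydroxylase of telopeptides, had 137, 151, 154 and 143 CPM. Creb3l1, the membrane-bound transcription factor that drives collagen secretion in osteoblasts, had 280, 286, 269 and 285 CPM. Mia3 (TANGO1), which helps load collagen at exit sites, had 138, 140, 135 and 140 CPM. These levels differed little between the 4 mice.

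Among chaperones and translocation genes, Calr (1081 ± 83.2 TPM), Pdia3 (853 ± 32.4 TPM), Hsp90b1 (741 ± 29.5 TPM) and Hspa5 (724 ± 33.7 TPM) led. Hspa5, which encodes the chaperone BiP, had a CV of 1.91%, with 838, 856, 841 and 873 CPM. Xbp1, a transcription factor of the secretory pathway, had 251, 236, 254 and 248 CPM. Surf4, a cargo receptor of the endoplasmic reticulum, had 538, 531, 525 and 531 CPM, a CV of 0.979%. Kdelr2 and Kdelr3, which retrieve escaped chaperones, were lower in WT3 and WT4 (368 and 380 CPM for Kdelr2) than in WT1 and WT2 (451 and 452 CPM).

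Osteoblast and suture identity genes were read next. All 28 reached 1 CPM in every library, and together they held 0.453% ± 0.0118 of counts. All 25 endothelial and all 22 macrophage genes also reached 1 CPM, as did 13516 genes in all. Reaching this level therefore does not identify the tissue. Sp7, the osterix transcription factor, had 463, 439, 425 and 427 CPM (464 ± 12.04 TPM). Runx2, which acts upstream of it, had 220, 243, 261 and 233 CPM (97.3 ± 7.81 TPM). Pth1r, the receptor for parathyroid hormone, was at 400 TPM, and Twist1, a factor of suture mesenchyme, at 329 TPM. Twist2 was low, at 1.94 to 2.91 CPM. The osteoclast-inducing ligand Tnfsf11 (RANKL) had 14.5, 20.5, 18.4 and 15.7 CPM and its decoy receptor Tnfrsf11b (osteoprotegerin) 15.5, 11.9, 16.5 and 12.6 CPM. Per exon base, Tnfrsf11b was 0.847, 0.462, 0.709 and 0.637 times Tnfsf11, lowest in WT2.

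Osteoclast genes held 0.631%, 0.778%, 0.944% and 0.812% of counts. On the TPM scale they held 1.34% ± 0.232, beside 0.335% ± 0.00680 for the osteoblast and suture genes. The osteoblast and suture list holds mainly transcription factors, receptors and ligands. Abundant osteoblast products such as Col1a1 and Ibsp are counted in the matrix lists, so these shares do not compare amounts of the cell types. Of the 16 osteoclast genes, 15 were lowest in WT1 and 14 were highest in WT3. Ctsk, which encodes the collagen-degrading cathepsin K, had 2571, 3181, 3795 and 3169 CPM. Acp5, the tartrate-resistant phosphatase, had 1384, 1669, 2091 and 1673 CPM. Mmp9, a gelatinase, had 1380, 1780, 2140 and 2004 CPM. All 3 genes were lowest in WT1 and highest in WT3. Itgb3, the β3 integrin of the resorbing attachment zone, had 154, 188, 252 and 218 CPM, and the proton pump subunit Atp6v0d2 141, 180, 225 and 184 CPM. Spp1 and Mmp13 were also highest in WT3, and the share of counts held by the osteoclast list was 0.740% ± 0.0963 without WT3 and 0.844% ± 0.0877 without WT1.

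Macrophage markers, which osteoclasts share in part, held 0.105% ± 0.00877 of counts, and 13 of 22 were highest in WT3, where 30.4% of all genes were. Csf1r, the receptor for the growth factor M-CSF on both cell types, had 226, 274, 346 and 312 CPM, the order seen for Mmp9. Lyz2 (lysozyme) and the complement genes C1qa, C1qb and C1qc did not follow that order: Lyz2 had 83.6, 85.6, 79.1 and 82.6 CPM and C1qa 30.7, 31.2, 31.0 and 30.1 CPM.

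Blood cell transcripts were a small part of the libraries. The adult globins held 0.0790%, 0.0432%, 0.0708% and 0.0447% of counts. Hbb-bs, a β-globin gene, had 404, 203, 348 and 216 CPM and Hba-a1, an α-globin gene, 252, 141, 237 and 154 CPM. WT1 and WT3 lay above WT2 and WT4 for both genes, with no overlap between these pairs. The α-globin copies Hba-a1 and Hba-a2, like the β-globin copies Hbb-bs and Hbb-bt, are near-identical, so the split between copies is uncertain. The embryonic globins Hba-x, Hbb-bh1 and Hbb-y and the gene Hbb-bh2 had 0 counts in each library, which allows at most 0.0703 CPM for any of them.

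Alas2, the erythroid enzyme of haem synthesis, followed the globins with 24.7, 12.2, 26.8 and 15.8 CPM. Other genes of red cell precursors had another order: among erythroid genes with a mean of at least 1 CPM, 17 of 21 were highest in WT3 and 13 were lowest in WT4, beside 30.4% and 29.6% of all genes. Slc4a1 (the band 3 anion exchanger) had 9.92, 8.18, 16.7 and 6.17 CPM. WT3 alone was high in this membrane protein gene, whereas WT1 led in the globins.

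Granulocyte transcripts were lowest in WT4. All 10 neutrophil genes with a mean of at least 1 CPM were lowest there, and 7 were highest in WT2. S100a9, a calcium-binding protein of neutrophils, had 13.2, 19.8, 16.9 and 6.09 CPM. The granule protein gene Ngp had 6.81, 8.90, 6.77 and 2.86 CPM. Mast cell genes had another order, with all 7 members at a mean of 1 CPM or more highest in WT1. Cma1, a chymase, had 14.7, 7.12, 8.82 and 5.08 CPM, and Cpa3, a carboxypeptidase, 8.60, 3.96, 8.02 and 3.43 CPM.

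Lymphoid lists held small shares. B cell genes held 0.00222% ± 0.000229 of counts, led by Ighm, the μ heavy chain constant gene, at 9.05 to 11.7 CPM, and T and NK cell genes 0.000792% ± 7.97e-05. Cd4 at 4.08 to 5.75 CPM was the highest of the latter, while Cd3e, which defines T cells, had 0.0446 to 0.154 CPM, around the floor of 3 counts. Platelet genes held 0.00341% ± 0.000435, of which Pf4, platelet factor 4, had 23.6, 25.6, 20.96 and 19.5 CPM.

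The vessel lists held 0.616%, 0.601%, 0.622% and 0.725% of counts, with WT4 above the other 3 libraries. The difference lay mainly in the basement membrane list, with 0.326%, 0.314%, 0.329% and 0.399% of counts, where all 13 genes were highest in WT4. Basement membrane genes are not particular to vessels, so the summed share is not a measure of vessels alone. Hspg2, which encodes perlecan, had 481, 457, 471 and 658 CPM, and Col4a1 and Col4a2, the chains of type IV collagen, had 847, 812, 785 and 1014 CPM and 437, 417, 425 and 547 CPM. The endothelial list held 0.142% ± 0.00787 and had 13 of 25 genes highest in WT4, beside 22.5% of all genes. The remaining genes were spread evenly, with 4 highest in each of the other libraries, and 4 genes were lowest in WT4. Cdh5, the adhesion molecule VE-cadherin, had 154, 152, 166 and 194 CPM and Pecam1 144, 146, 154 and 165 CPM.

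Long genes as a whole also took more of the counts in WT4. Without the collagen chains, the 1551 genes with 10000 or more exon bases held 10.8%, 10.9%, 11.8% and 12.2% of counts and the 20901 genes under 1000 exon bases 2.66%, 2.51%, 2.33% and 2.14%. Hspg2 has 14307 exon bases. The part of gene length in the vessel difference was not tested.

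Genes of vascular mural cells were also read. The pericyte and smooth muscle list held 0.151%, 0.147%, 0.150% and 0.169% of counts, highest in WT4. On the TPM scale it held 0.166% ± 0.0129, beside 0.136% ± 0.00955 for the endothelial list. Rgs5, a pericyte regulator of G protein signalling, had 259, 295, 314 and 319 CPM, and Acta2, smooth muscle actin, 232, 203, 179 and 219 CPM (341 ± 38.4 TPM). Myh11, the myosin of mature smooth muscle, was low, at 5.73, 9.96, 7.82 and 10.6 CPM. Emcn, a glycoprotein of the bone vessels that accompany bone formation, had 38.1, 42.4, 39.5 and 37.1 CPM. Lymphatic genes held 0.00225% ± 0.000199, with Prox1, which defines lymphatic endothelium, at 0.557 to 1.87 CPM and the ligand Ccl21a at 0 counts. Ccl21a is listed under 2 gene IDs, and how reads matching several places were counted was not stated, so its 0 counts are uncertain.

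Skeletal muscle genes had the most uneven summed share of all lists, with a CV of 66.0%. Their 60 genes held 0.312%, 0.244%, 0.00962% and 0.229% of counts, a mean of 0.199% ± 0.131 with all libraries and 0.262% ± 0.0441 without WT3. WT3 was the lowest library for 57 of the 58 genes with a mean of at least 1 CPM, and WT1 was the highest for 49. Acta1, skeletal muscle actin, had 568, 446, 0.824 and 365 CPM, and its level in WT3 was 443-fold below that of the nearest library. Myh8, the perinatal myosin heavy chain, had 401, 304, 0.713 and 344 CPM and was 427-fold below the nearest library in WT3. Other sarcomere genes had the same pattern. Mylpf, a fast myosin light chain, had 199, 149, 1.34 and 124 CPM. Tnnt3, a fast troponin, had 169, 128, 1.80 and 114 CPM.

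The level in WT3 was not 0 for most of these genes, and its distance from the others differed between them. Counts in WT3 were at most 3 for 17 of the 60 genes and 0 for 4. Ttn, the giant titin, kept 15.2 CPM in WT3 against 87.7 to 135 in the others, Des (desmin) 7.69 CPM against 67.0 to 94.8, Eno3, a muscle enolase, 16.1 CPM against 47.6 to 62.0, and Myom1 15.4 CPM against 37.7 to 45.9. Myh4, the fast IIb myosin, named after its values were seen, had 0.198, 0.750, 0.2005 and 15.3 CPM, so that WT4 alone was high and WT1, which led the other muscle genes, was not.

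Factors of muscle cell identity were low in WT1, WT2 and WT4 and not detected, or nearly so, in WT3. Myod1, a master regulator of the lineage, had 1.79, 1.71, 0 and 1.79 CPM. Myog, which acts in differentiating muscle cells, had 2.80, 2.72, 0 and 1.53 CPM. Chrna1, the acetylcholine receptor subunit, had 2.84, 2.55, 0.178 and 2.42 CPM. With 0 counts, the floor of 3 counts puts Myod1 and Myog in WT3 at no more than 0.0668 CPM. In WT3, 9 of the 16 genes of this list had 0 counts. The list's summed share was nevertheless 0.00760%, 0.00881%, 0.00795% and 0.00906%, because Megf10 (35.8, 45.3, 53.0 and 48.3 CPM) and Cdh15 (24.8, 29.9, 26.1 and 29.7 CPM) carried most of it and were not low in WT3.

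**Figure D3:**
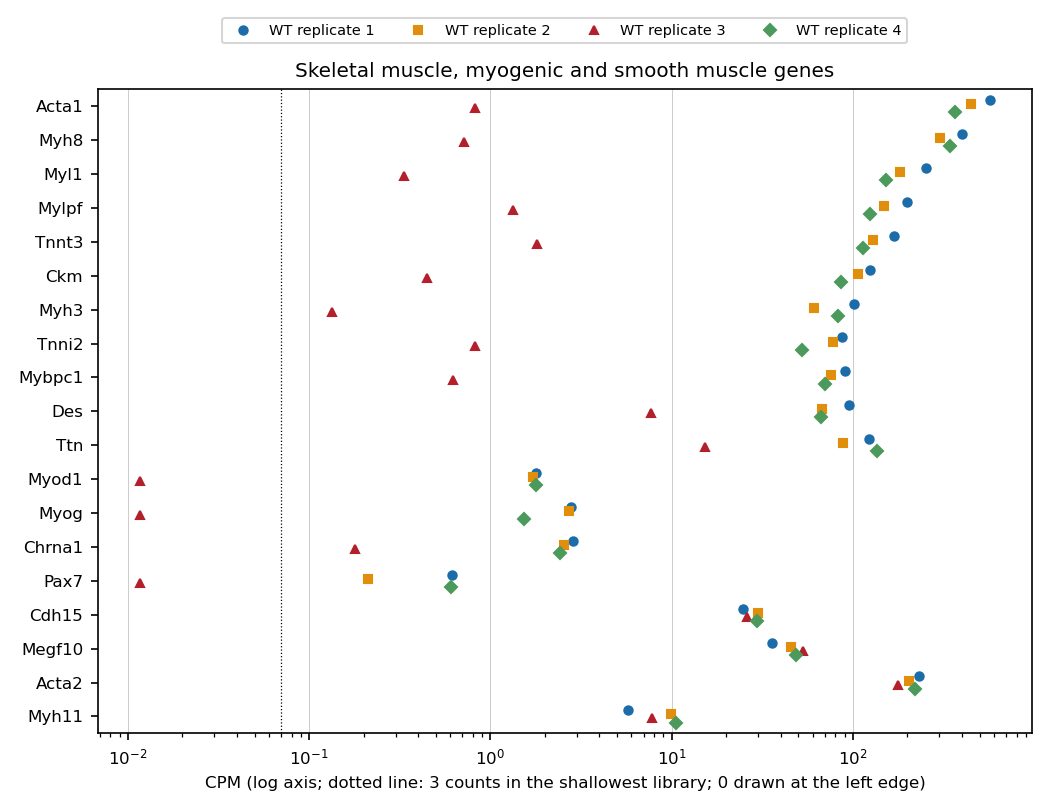
CPM (log axis) of skeletal muscle, myogenic and smooth muscle genes in each wild-type library; the dotted line marks 3 counts in the shallowest library and 0 is drawn at the left edge. WT3 lies far left for Acta1 (0.824 against 365 to 568) through Chrna1 and Pax7, and among the other libraries for Cdh15 and Myh11. For Megf10 it is the highest library (53.0 against 35.8 to 48.3), and for Acta2 the lowest (179 against 203 to 232).

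Genes far below the other libraries in WT3 were also counted without regard to any list. Among the 9762 genes with a mean of at least 10 CPM, 42 were 2-fold or more below the nearest library in WT3, and 32 of these belonged to the muscle lists. The same count was 0 for WT1, 1 for WT2 and 2 for WT4. The others included Atp1b4 (38.9, 25.5, 0.0668 and 31.1 CPM), Srl (33.2, 28.1, 4.95 and 31.8 CPM), a protein of the sarcoplasmic reticulum, and Tceal7 (42.3, 30.7, 0.0223 and 24.7 CPM), all named after their values were seen. Tpm2, a tropomyosin, had 304, 269, 120 and 230 CPM. Imprinted transcripts of the Dlk1 to Meg3 region were also lowest in WT3. Dlk1, a membrane protein of immature cells, had 127, 102, 39.0 and 88.3 CPM. The noncoding RNA Meg3 had 609, 431, 264 and 408 CPM, and its neighbour Rian 277, 208, 129 and 195 CPM. Their levels moved beside those of the muscle genes, whose part in this was not tested.

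Nerve transcripts were the rarest of the 6 classes, with 0.0248%, 0.0145%, 0.0137% and 0.0144% of counts. The Schwann cell list held 0.00716% ± 0.00108 of counts. Among its genes, S100b had 10.6, 10.8, 11.4 and 10.6 CPM, and Sox10, the lineage factor, 3.33, 2.13, 3.21 and 3.35 CPM. Peripheral neuron genes such as Prph (0.312 to 0.797 CPM) and Calca (0.290 to 1.20 CPM) were low in all libraries.

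Genes of brain cells stood out in WT1. All 8 neuron genes and all 6 brain glia genes with a mean of at least 1 CPM were highest there. Gfap, the intermediate filament of astrocytes, had 4.76, 0.445, 0.735 and 0.484 CPM. Slc1a2, the astrocyte glutamate transporter, had 6.22, 0.680, 0.290 and 0.746 CPM. Stmn2, a neuronal microtubule regulator, had 13.2, 5.55, 4.54 and 4.94 CPM. WT1 lay above the range of the other 3 libraries for each. Olig1 and Mobp, genes of oligodendrocytes, had 2.54 and 1.39 CPM in WT1 and at most 0.0223 CPM elsewhere. Fabp7, listed under Schwann cells but also made by radial glia, had 24.4, 5.15, 6.13 and 4.84 CPM. Without WT1 the brain glia list held 0.00302% ± 5.73e-05 and the neuron list 0.00453% ± 0.000436 of counts.

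Fat transcripts had the same high library. Adipoq, the adiponectin gene, had 10.2, 0.234, 1.02 and 0.0806 CPM. Plin1, which coats lipid droplets, had 8.56, 0.539, 0.780 and 0.121 CPM. Cfd (adipsin) had 6.197, 0.375, 0.913 and 0.0605 CPM. Genes that other tissues also make were less uneven, among them Car3, also a muscle enzyme, at 311, 224, 235 and 201 CPM. Fabp4, a fatty acid carrier of endothelium and macrophages as well, had 133, 102, 74.7 and 81.1 CPM. Pparg, the regulator of fat cell formation, did not differ in this way, with 5.76, 6.14, 4.97 and 5.24 CPM. The adipocyte list held 0.0603%, 0.0424%, 0.0381% and 0.0367% of counts.

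Meningeal and skin markers were low in all libraries. The meninges list held 0.00939% ± 0.00124, and 7 of its 8 members with a mean of at least 1 CPM were highest in WT3. The exception was Ptgds, a prostaglandin synthase of the arachnoid, with 17.6, 2.18, 0.401 and 0.363 CPM, highest in WT1. Epidermal genes held 0.00181% ± 0.000150, and the basal keratins that define epidermis were at the floor: Krt5 had at most 0.0446 CPM and Krt14 at most 0.0221 CPM in any library. Flg and Dsg3 had 0 counts in all 4. Other members of this list were detected, and 4 of its 19 genes reached 1 CPM in every library. Krt10 led with 5.14, 5.11, 4.83 and 3.73 CPM, and Sfn had 4.37, 3.54, 2.87 and 3.45 CPM.

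**Figure D4:**
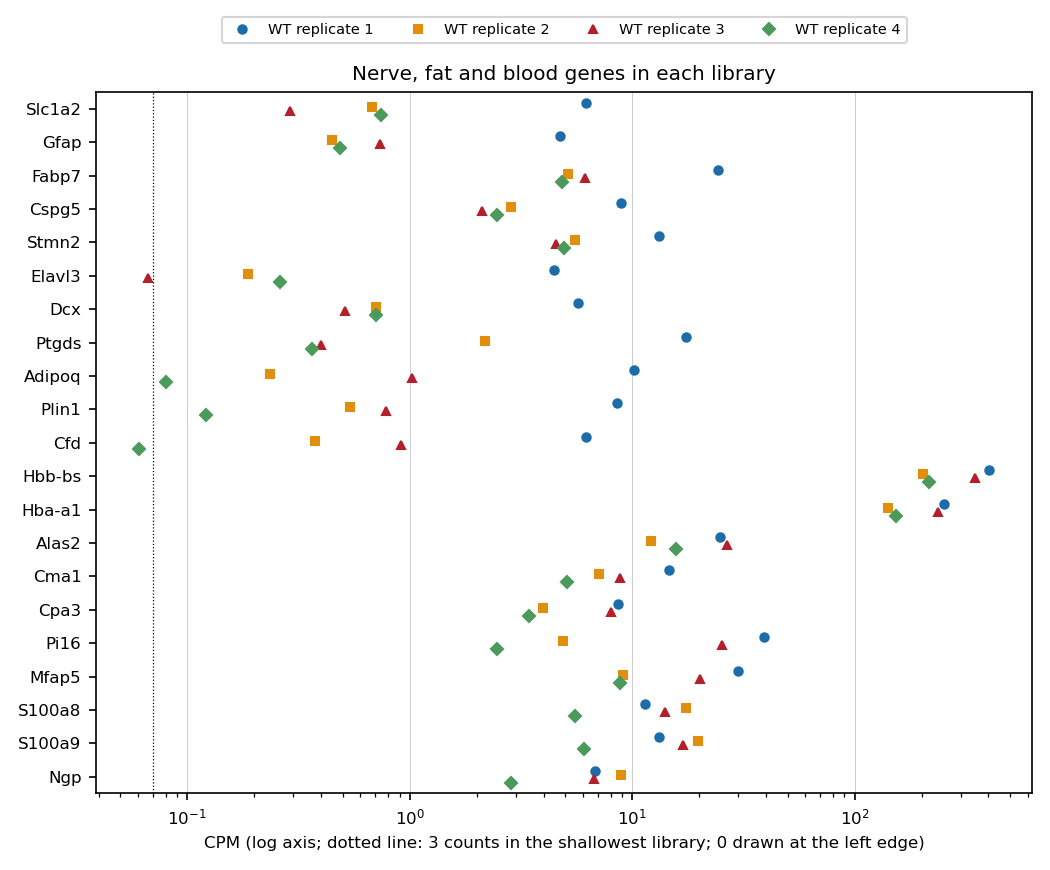
CPM (log axis) of nerve, fat and blood genes in each wild-type library, with the dotted line at 3 counts in the shallowest library. WT1 lies at the right for Slc1a2 through Cfd (Adipoq 10.2 against 0.0806 to 1.02), WT1 and WT3 at the right for Hbb-bs through Mfap5, and WT4 at the left for S100a8, S100a9 and Ngp.

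Pi16, a surface protein of fascial fibroblasts, named after its values were seen, had the most uneven level outside muscle among genes with a mean of at least 10 CPM. Its values were 39.2, 4.87, 25.3 and 2.46 CPM, a CV of 97.3%. WT1 and WT3 were the high libraries, as for the globins, Mfap5 and Cpa3. Tnxb, tenascin X of loose connective tissue, had 17.6, 5.44, 9.31 and 4.82 CPM in the same order, and Lyve1, a marker of lymphatic endothelium and of some macrophages, 6.13, 3.98, 7.44 and 4.21 CPM.

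Mitochondrially encoded messengers held 2.39%, 2.01%, 2.34% and 2.06% of counts and 6.54% ± 0.478 of TPM. mt-Co1, a subunit of cytochrome oxidase, led at 18954 ± 1439 TPM and mt-Cytb followed at 14432 ± 1218 TPM. The 13 messengers were far from even: mt-Co2, mt-Co3 and mt-Atp6 had 7.59, 9.12 and 6.27 TPM, and mt-Nd3 68.7 TPM. These genes have nuclear copies, so their counts are uncertain, and how reads matching several places were counted was not stated. mt-Nd6, the messenger on the opposite strand, had 7341 ± 1046 TPM, and the strand setting of the counting is not given either.

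Ribosomal protein genes held 4.88%, 4.86%, 4.35% and 3.88% of counts and 9.76% ± 0.798 of TPM. Of 84 genes with a mean of at least 1 CPM, 82 were lowest in WT4 and 49 were highest in WT1. Rplp1 had 1042, 1024, 858 and 804 CPM and Rplp0 1740, 1653, 1674 and 1484 CPM. Rplp1 has 499 exon bases and Rplp0 1659, and the share of genes under 1000 exon bases given above was also lowest in WT4. The part of gene length in this order was not tested. Rps2-ps10, a processed copy of Rps2, had 83.8, 0.750, 80.2 and 72.7 CPM, while Rps2 itself had 660, 971, 582 and 520 CPM. They are near-identical in sequence, so both levels are uncertain.

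Imprinted growth genes were abundant and together nearly constant, at 1.08% ± 0.0198 of counts. H19 had 4626, 4517, 4325 and 4161 CPM, and Igf2, the fetal growth factor gene beside it, 3255, 2982, 3583 and 3535 CPM (2099 ± 217 TPM). Grb10, an adaptor that restrains growth, had 602, 636, 618 and 639 CPM. Proliferation genes held 0.106% ± 0.00506, with Mki67 at 175, 170, 178 and 196 CPM and 13 of 18 genes lowest in WT3. Xist, the RNA of the inactive X chromosome in female cells, had 863, 801, 984 and 1051 CPM. Kcnj9 itself had 0, 0, 1 and 4 counts and ranked 23981 by mean CPM.

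Genes often used as internal references were not equally steady. Actb had 1815, 1922, 1958 and 1702 CPM, Eef2 1784, 1912, 1994 and 1993 CPM, and Gapdh 548, 476, 429 and 486 CPM. Tpt1 had 2009, 2037, 2027 and 1652 CPM, with WT4 below a tight group of 3, and Hprt 64.2, 76.7, 61.8 and 53.8 CPM. Tbp had 25.6, 24.5, 27.1 and 25.9 CPM. Among the 10 genes of lowest CV with a mean of at least 50 CPM were Gorasp2, Grb2 and Gnai2, given as examples; Ccdc97, Sfswap, Sertad4 and Dda1 also lay below Gnai2. Gorasp2, a Golgi stacking protein, had 181.8, 182.2, 183.6 and 182.0 CPM (CV 0.441%), Grb2, a signalling adaptor, 84.8, 84.2, 84.0 and 83.8 CPM (CV 0.513%), and Gnai2, an inhibitory G protein subunit, 490.9, 494.1, 492.9 and 499.2 CPM (CV 0.715%). These genes were picked for the lowest CV among 3773 genes over only 4 libraries. Their CVs therefore do not show that they are steadier than other genes.

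The spread between the 4 libraries was then taken over all genes. For the 9762 genes with a mean of at least 10 CPM the median CV was 7.25%, with 10% of genes under 3.32% and 10% above 14.2%. A CV under 5% was found for 2515 genes (25.8%) and a CV above 50% for 40 genes (0.410%). Of these 40 genes, 28 belonged to the muscle lists, which have 34 genes at this level. Without WT3 the number of genes with a CV above 50% was 12. The biological coefficient of variation, the spread beyond counting noise shared by all genes as edgeR estimates it, was 0.139 over 16225 genes.

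**Figure D5:**
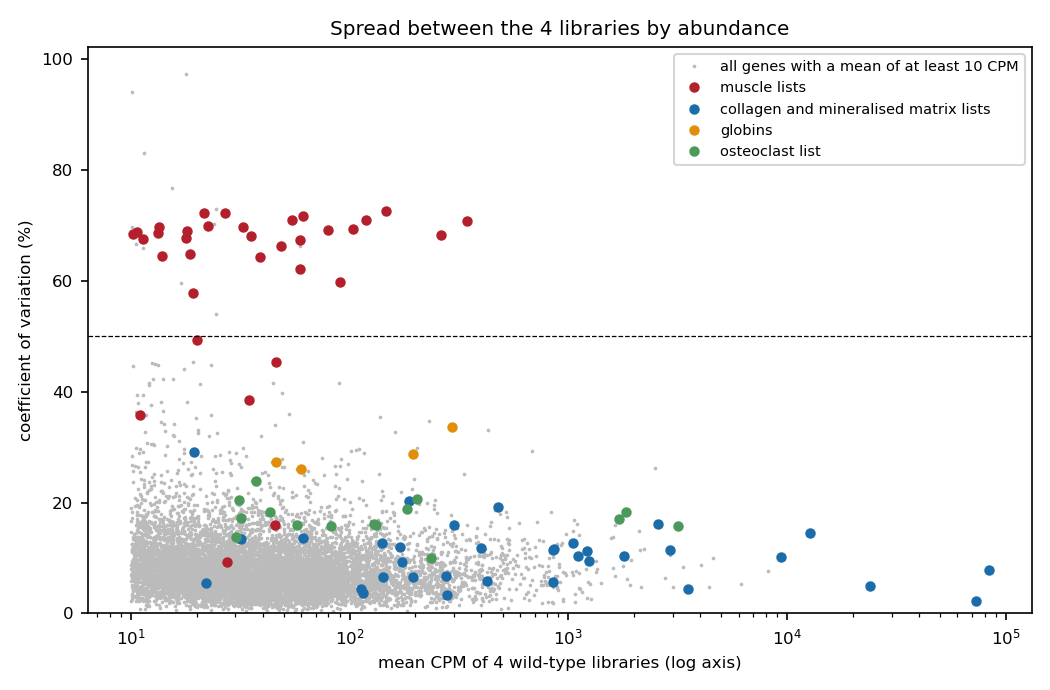
Coefficient of variation over the 4 wild-type libraries against mean CPM (log axis) for the 9762 genes with a mean of at least 10 CPM, with muscle, matrix, globin and osteoclast lists in colour and a dashed line at 50%. Of the 40 genes above the line 28 are muscle genes, while Col1a1 and Col1a2 lie at the far right at 7.76% and 2.15%.

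Outside muscle and the genes already named, the uneven genes with a mean of at least 50 CPM included some that separated WT1 and WT2 from WT3 and WT4. Arsb, a lysosomal sulphatase, had 92.6, 98.0, 183 and 176 CPM, Timp3, an inhibitor of metalloproteinases, 120, 112, 215 and 198 CPM, and Vcl (vinculin) 47.0, 43.3, 73.1 and 81.4 CPM. For these genes 39.9%, 21.3% and 25.5% of exon bases overlap an exon on the opposite strand, and without a stated strand setting their reads cannot be told apart from those of the overlapping gene. Pairs of libraries had rank correlations across genes (Spearman) between 0.987 for WT1 with WT3 and 0.995 for WT1 with WT2, a description across genes that are not independent replicates.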

How the data were processed

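RNA sequencing counts per gene were analysed for 4 wild-type newborn calvaria. Raw counts for each Ensembl ID were deposited, not normalized. The submitters' processing notes name bcl2fastq 2.17, STAR 2.5.2b, featureCounts of Subread 1.5.2 and build mm10. The annotation release, the strand setting and the treatment of reads with several matches were not stated in the labels or the table. Samples were grouped by the titles. The 4 knockout columns were not used.

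From the counts, CPM were computed with library totals and TPM with the exon-union length of GENCODE mouse release M21 (GRCm38/mm10), found for 49056 of 49315 IDs. Values are means ± SD over 4 libraries, with no test, since 1 group was described. Totals ran from 42677925 to 49600047 counts. Floors of 3 counts cover counting error only. The biological coefficient of variation came from edgeR 4.0.16 (R 4.3.3, intercept only, TMM factors, filterByExpr with a minimum count of 10), checked on simulated data. DESeq2 1.42.0 was an alternative. Other alternatives were length definitions, other totals and filters, and leaving out each library.

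Of 732 genes in 36 lists, 729 are in the table. Ahsp and both mitochondrial ribosomal RNA genes were not analysed here. The lists and the choice of libraries were made with earlier results of these data known. Named genes were the 25 of highest TPM, the 10 of highest CPM, 4 per list by CPM, the 20 of highest and 10 of lowest CV with a mean of at least 50 CPM, and a fixed set of bone, blood, vessel, muscle and nerve genes. Model numbers were passed over. Other list members and genes were named after their values were seen. The nuclear noncoding list (Xist, Malat1, Neat1, Kcnq1ot1) held 0.191% ± 0.0137 of counts and the reference list 1.57% ± 0.0705. Figures were drawn with matplotlib 3.10.9. A few list members are not reported here.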

Additional observations from a re-analysis of the deposited data

Results flagged for a closer look

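A group of 4 libraries was marked where the gap between its highest or lowest library and the nearest of the others, divided by the whole range, exceeded Dixon's critical value for 4 samples. Of 222 groups checked (class shares, list shares and named genes), 18 were marked. Chance marks about 1 in 20 groups, or about 11.1 of 222, so that no single one of them is firm. The groups also overlap, because a class share holds its lists and a list share holds its genes. Some named genes were picked for a high CV over these same libraries. The marks are therefore not independent of each other, and the number that chance would give holds only roughly. Several marks in the same library and tissue do not strengthen each other. The marks are given below by library.

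WT1 was far above the others in the nerve class (0.0248% of counts against 0.0137% to 0.0145%), the neuron list (0.00934% against 0.00426% to 0.00503%) and the brain glia list (0.00679% against 0.00296% to 0.00307%). The genes behind these were Fabp7 (24.4 CPM against 4.84 to 6.13), Stmn2 (13.2 against 4.54 to 5.55), Cspg5, a proteoglycan of brain cells (8.93 against 2.12 to 2.86), Slc1a2 (6.22 against 0.290 to 0.746) and Gfap (4.76 against 0.445 to 0.735).

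WT4 was far above the others in the vessel class (0.725% of counts against 0.601% to 0.622%) and in the pericyte and smooth muscle list (0.169% against 0.147% to 0.151%). Hspg2 (658 CPM against 457 to 481) and Col4a2 (547 against 417 to 437) were high in the same library, and Tpt1 was low there (1652 against 2009 to 2037).

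WT3 was far above the others for Spp1 (15524 CPM against 11653 to 11981) and far below them for Chrna1 (0.178 against 2.42 to 2.84) and Myod1 (0 against 1.71 to 1.79). WT2 was below the others for Bgn (2797 CPM against 3053 to 3099) and for Rps2-ps10 (0.750 against 72.7 to 83.8), whose reads can also match Rps2.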

How the results depend on the processing

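Scaling with TMM or DESeq2 size factors moved the class shares by less than the SD between libraries. Leaving globin, mitochondrial or muscle genes out of the totals also moved them by less than this SD, except for the blood share. That share was 0.167% without globins and mitochondrial genes, beside 0.222% with them. Globins were there left out of the blood genes as well as of the totals, so a fall was built into this setting. Per exon base, matrix genes held 16.8% of TPM, blood genes 0.556% and vessel genes 0.458%. With the longest transcript as length, chosen after seeing the data, these were 17.6%, 0.494% and 0.408%. The genes holding 50% numbered 466 by counts, 267 by TPM, 282 by TPM from the longest transcript and 276 without genes under 200 exon bases (the last 2 chosen after seeing the data).

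The number of genes with a CV above 50% was 40, but 269 with a minimum mean of 1 CPM and 12 without the muscle lists. Leaving out 1 library at a time gave 12 to 46, with 12 reached without WT3. The biological coefficient of variation was 0.139 with edgeR, 0.184 with no filter beyond 1 count and 0.0770 as the median gene-wise value of DESeq2. It ran from 0.122 (without WT3) to 0.153 when 1 library was left out. Leaving out 1 library gave 24.99% to 25.7% for the matrix share, 2.93% to 2.99% for secretory genes, 0.213% to 0.230% for blood, 0.613% to 0.654% for vessel, 0.169% to 0.270% for muscle and 0.0142% to 0.0179% for nerve, 455 to 473 genes for 50% of counts and 13584 to 13721 genes at 1 CPM in every library, beside 13516 with all 4. Of the ranks of named genes by TPM, 11 of 181 moved by a large factor with the longest transcript as length, Col1a2 and Spp1 among them. Many of the other ranks shifted by smaller factors, such as that of Col3a1 from 24 to 16. The cause of these shifts was not tested beyond the settings themselves. No paired analysis was possible because only 1 group was described.

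With 4 libraries, a spread is itself uncertain. Depth limits genes near 3 counts, and the length of a gene limits every level that is compared between genes.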
